A study of Mus musculus with 4 samples.

Results

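The genes described here encode the beta subunits and the FXYD subunits of the sodium-potassium ATPase, the sodium pump of the plasma membrane. They are the 6 genes Atp1b1, Atp1b2, Atp1b3, Fxyd1, Fxyd5 and Fxyd6 of the 18193 genes with a named probe set on the arrays. A probe set, a group of short probes for 1 transcript, was taken as a member when the platform annotation gave it exactly 1 of these symbols, which gave 11 probe sets. Atp1b1 had 5 of them, Atp1b2 had 2 and each of the other 4 genes had 1. The family was selected on measured differences in signal between the cell lines, in particular that of Atp1b2. The differences of these 6 genes between the lines are therefore given as a description. Where a count below says that one of them lay past the threshold of the fit over all genes, nothing is read from it.

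The pump uses ATP to carry sodium out of the cell and potassium in, and so maintains the ion gradients that drive many other transporters. Its catalytic alpha subunit needs a glycosylated beta subunit to fold and to reach the cell surface. FXYD proteins are small membrane proteins that bind the pump and tune its affinity for ions and its rate. Beta subunits also take part in adhesion between cells, and the subunit encoded by Atp1b2 was described in rodent glia as an adhesion molecule.

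The study set a non-pigmented against a pigmented melanocyte line, both from skin of Balb/c mice. The first of them carries a homozygous point mutation in the tyrosinase gene, and the pigmented line is labelled wild type with that mutation corrected. Both were cultured in RPMI medium with serum, 2-mercaptoethanol and TPA, a phorbol ester that activates protein kinase C. Total RNA was hybridised to 4 Affymetrix mouse expression arrays, 2 for each line, and the labels do not say whether the arrays of a line came from separate cultures. Array values are called signal below and are relative brightness, so the signals of different probe sets are not compared as amounts of RNA.

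Median signals were 111 and 99.7 on the non-pigmented arrays and 130 and 126 on the pigmented arrays, given here and below for replicate 1 and then replicate 2 of a line. Tyr, the gene that carries the mutation, had signals of 214 and 67.2 in the non-pigmented line, against 17306 and 11698 in the pigmented line, in its brightest probe set. A point mutation need not change the amount of RNA, so this checks the labels in part only. Of 10 melanocyte markers tested, 8 were lower in the non-pigmented line and 0 were higher. The other 2, Sox10 and Tyrp1, did not pass the test described below. Over all genes tested 2.03% passed as higher and 1.33% as lower in the non-pigmented line. Of 10 markers of Schwann cells or glia tested, 5 were higher in the non-pigmented line, 0 were lower and 5 did not pass. The summed signal of the 11 such markers on the array lay between 22873 and 27909 in the non-pigmented line, against 2776 to 3776 in the pigmented line. For 6 neuronal markers the sum was 2900 to 3109 in the non-pigmented against 860 to 1335 in the pigmented line. For 6 keratinocyte markers it was 816 to 863 against 401 to 452, and for 7 muscle markers 399 to 424 against 345 to 366. For 8 fibroblast markers it was lower in the non-pigmented line, at 843 to 971 against 1519 to 1635. The 3′ to 5′ signal ratio of the Gapdh control, a measure of RNA integrity, was 0.903 and 20.2 on the non-pigmented and 0.864 and 16.8 on the pigmented arrays, so that replicates 1 had a low and replicates 2 a high ratio in both lines.

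Atp1b2 and Fxyd5 stood higher in the non-pigmented line, and Atp1b3 lay among the brightest probe sets of both lines. The probe sets of Atp1b1 differed in opposite directions. Fxyd1 was dim with overlapping lines and Fxyd6 was close to the lowest signals of the arrays. Differences below are those in log2(signal + 16), non-pigmented minus pigmented, with a standard error from limma, and they understate the change of dim probe sets. Genes with a mean log2 value under 6.44, or a signal of 70.7, were not tested, which left 5 of the 6 genes (all but Fxyd6) and 9 of the 11 probe sets.

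**Figure D1:**
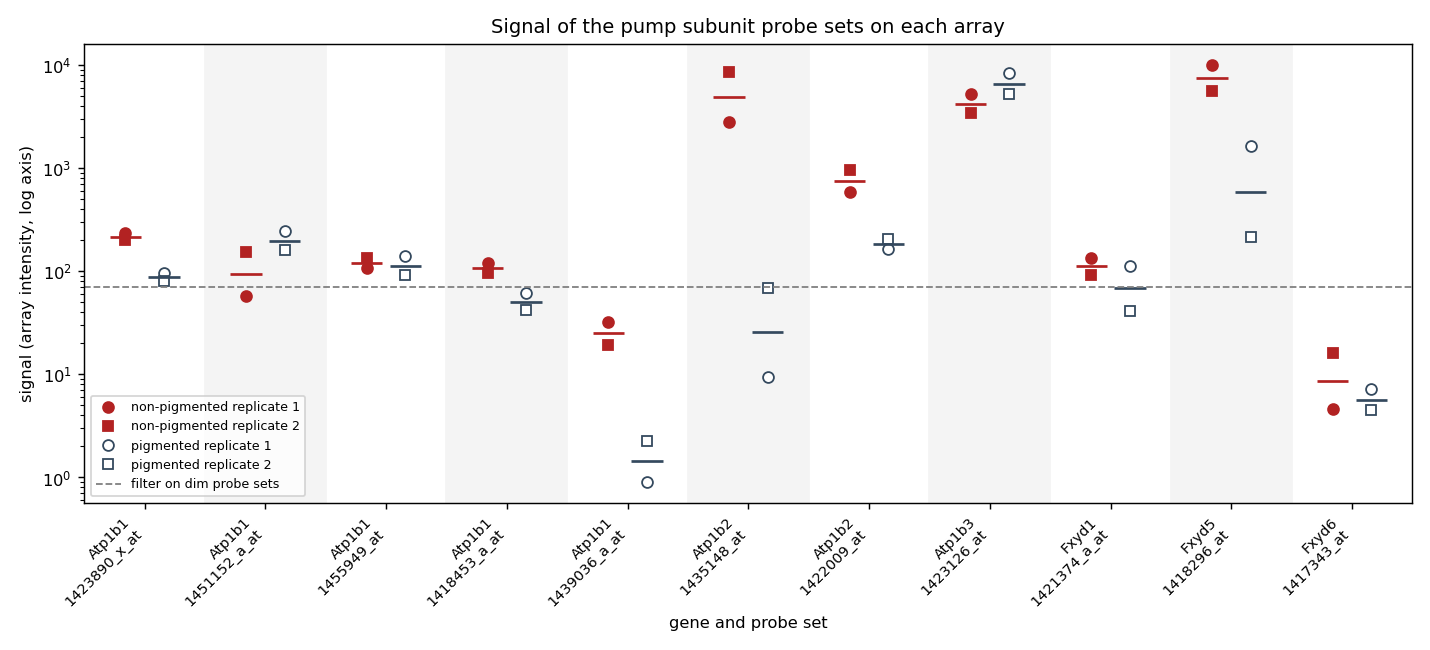
Signal of each of the 11 probe sets on each of the 4 arrays, on a log axis. Points are single arrays, short bars are geometric means of 2 arrays, and the dashed line is the filter on dim probe sets at a signal of 70.7. The non-pigmented arrays lie far above the pigmented arrays for Atp1b2 and Fxyd5, and the lines overlap for Fxyd1.

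In the fit over all genes, 422 of 12562 genes (3.36%) lay past an adjusted p of 0.05 by limma, 255 of them higher (2.03%) and 167 lower (1.33%) in the non-pigmented line. Of the 5 pump genes tested 1 lay past it, Atp1b2, in the direction of higher signal in the non-pigmented line. In the fit over 27027 probe sets, where 1.49% were called, 1 of the 9 pump probe sets was called, the brighter one of Atp1b2. Because this contrast was known when the genes were chosen, nothing is read from these counts. Among the 9 probe sets the arrays of the lines did not overlap in 7, with 5 higher and 2 lower in the non-pigmented line. Over all probe sets tested the lines did not overlap in 42.6%, with 16.1% higher and 26.5% lower in the non-pigmented line.

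Atp1b2 encodes the beta2 subunit. Its brighter probe set, 1435148_at, had signals of 2831 and 8662 in the non-pigmented line, against 9.54 and 69.0 in the pigmented line. Both non-pigmented arrays lay far above both pigmented arrays, and both pigmented signals were under the filter value. On the arrays this placed it at percentiles 94.1 and 98.5 of all probe sets in the non-pigmented line, and at percentiles 7.37 and 37.4 in the pigmented line. Mean log2 values were 12.28 ± 1.14 (SD, n = 2) in the non-pigmented and 5.54 ± 1.23 (SD, n = 2) in the pigmented line, a difference of 6.74 ± 0.78 (SE), or 107-fold. With the dim line below the filter the size rests on the constant added before the logarithm: for this probe set it was 7.51 with a constant of 1 and 5.67 with 64.

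The second probe set of Atp1b2, 1422009_at, also stood higher in the non-pigmented line but by far less. Its signals were 591 and 955 in the non-pigmented line, against 165 and 206 in the pigmented line, and the lines did not overlap. The difference was 1.94 ± 0.50 (SE, probe set fit), or 3.83-fold. The pigmented signals of this probe set were at percentiles 56.0 and 59.2, and the probe sets of the gene thus differ in the size of the difference but not in its direction. Which transcripts each probe set reads was not analysed here. Within pairs of 1 array of each line, the difference of 1435148_at was 5.07 for the first and 8.41 for the second of the dates in the titles. It was 6.80 for the arrays with a low and 6.67 for those with a high 3′ to 5′ ratio. For 1422009_at these values were 1.45, 2.42, 1.75 and 2.13, all of the same sign.

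Several but not all markers of Schwann cells or glia were, like Atp1b2, higher in the non-pigmented line, and glial cells also express Atp1b2. The 5 that passed limma's test were Mbp, S100b, Nes, Sox2 and Pmp22, and the median difference over the 10 tested was 2.61, against -0.07 over all genes. Mal had a difference of -1.76, Slc1a3 one of -1.28 and Aqp4 one of 0.14, and none of the 3 passed. Other lists held markers that were higher too. Median differences over the markers tested were 2.51 for keratinocytes, 0.99 for neurons, 0.14 for fibroblasts and 0.06 for muscle. Of 3 tested keratinocyte markers Krt10 was called, at 3.02. Pkp1 (2.51) and Krt5 (-0.96, lower in the non-pigmented line) were not. Of 4 neuronal markers 0 were called by limma and 1 had an unadjusted p under 0.05 (Map2, 1.81). No fibroblast (of 4 tested) or muscle marker (of 2) was called. An unadjusted p under 0.05 by limma was found for 1 fibroblast marker and 0 muscle markers. Over all genes 3.36% were called and 13.8% had such an unadjusted p. The fibroblast marker was Col1a2, lower in the non-pigmented line at -2.11. The part of any of these markers in the difference of Atp1b2 was not tested. In RNA of whole cultures, fewer cells of a type and less RNA per cell cannot be told apart.

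Atp1b3, which encodes the beta3 subunit, was bright in both lines. Its only probe set had signals of 5224 and 3456 in the non-pigmented line, against 8442 and 5228 in the pigmented line. The lines met without overlap, since the brighter non-pigmented array lay just below the dimmer pigmented one. The probe set stood at percentiles 97.4 and 95.0 in the non-pigmented and at percentiles 98.8 and 97.3 in the pigmented line. The mean log2 values of 12.06 ± 0.42 (SD, n = 2) in the non-pigmented and 12.70 ± 0.49 (SD, n = 2) in the pigmented line gave a difference of -0.64 ± 0.42 (SE), which is close to the spread of the arrays. It was near 0 for the first date (-0.000886) and -1.28 for the second. Within the arrays of low and of high 3′ to 5′ ratio it was -0.69 and -0.60.

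Atp1b1 encodes the beta1 subunit, the most widespread beta subunit of mammalian tissues. Its 5 probe sets gave no common picture, with 4 higher and 1 lower in the non-pigmented line. The probe set with the highest mean, 1423890_x_at, had signals of 235 and 200 in the non-pigmented line, against 95.6 and 80.4 in the pigmented line, a difference of 1.17 ± 0.42 (SE) with no overlap. Almost as bright on average was 1451152_a_at, with 57.8 and 154 in the non-pigmented line, against 245 and 161 in the pigmented line. Its difference was -0.94 ± 0.60 (SE, probe set fit), so the probe sets of nearly equal mean differed in sign. That of 1451152_a_at rests mostly on replicates 1, with -1.82 within that pair and -0.06 within replicates 2.

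The other Atp1b1 probe sets lay between these or were dim. For 1455949_at the signals were 109 and 135 in the non-pigmented line, against 139 and 92.1 in the pigmented line, and the lines overlapped. For 1418453_a_at they were 121 and 97.1 in the non-pigmented line, against 61.5 and 41.7 in the pigmented line, a difference of 0.90 ± 0.50 (SE, probe set fit). The fifth, 1439036_a_at, was under the filter, with 32.6 and 19.3 in the non-pigmented line and 0.908 and 2.27 in the pigmented line. Which probe set stands for the gene decides the sign: quantile normalization or a constant of 64 put 1451152_a_at first, and the difference of the gene was then -0.77 or -0.70. The mean over its probe sets was 0.49. No direction is given for Atp1b1.

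**Figure D2:**
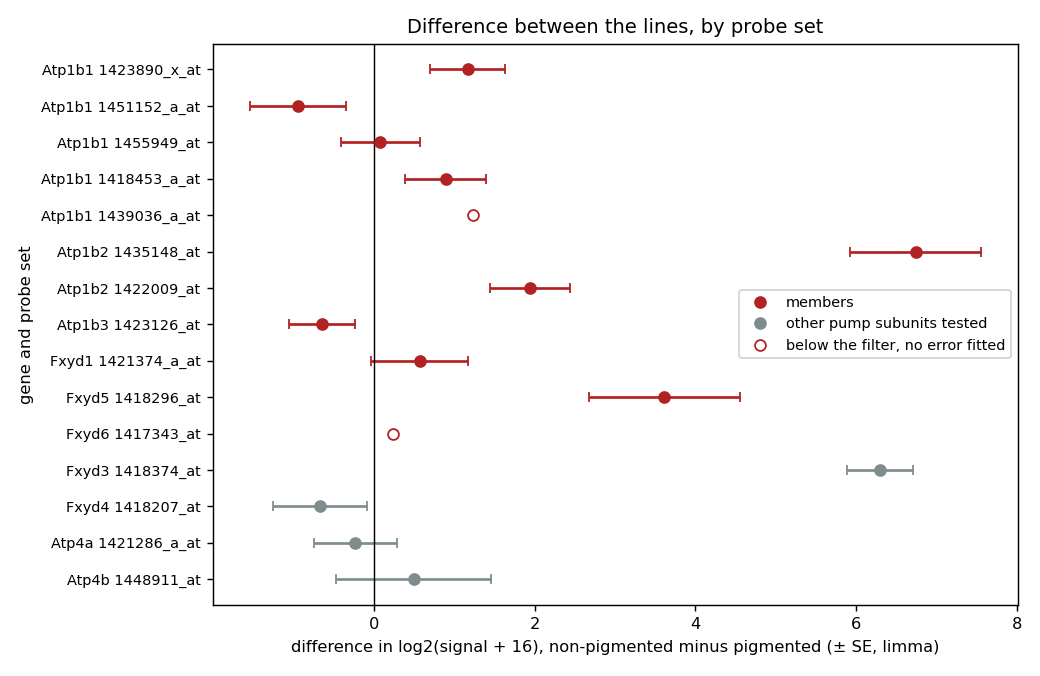
Difference in log2(signal + 16) between the lines, non-pigmented minus pigmented, for the 11 member probe sets and for 4 further pump subunit genes that were tested. Error bars are standard errors from limma's fit over all probe sets, and open circles mark probe sets under the filter, which have none. Atp1b2, Fxyd3 and Fxyd5 lie farthest to the right, and Atp1b1 has probe sets on either side of 0.

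Among the FXYD genes, Fxyd5 stood out in the non-pigmented line. It encodes dysadherin, a glycosylated FXYD protein that was found to weaken cell contacts in human cancer cells. Signals were 10097 and 5666 in the non-pigmented line, against 1642 and 216 in the pigmented line. The lines did not overlap, but the pigmented arrays lay far apart, at percentiles 89.6 and 60.1, whereas the non-pigmented arrays were at percentiles 99.2 and 97.3. Mean log2 values were 12.89 ± 0.59 (SD, n = 2) in the non-pigmented and 9.28 ± 2.01 (SD, n = 2) in the pigmented line, a difference of 3.61 ± 0.92 (SE), or 12.2-fold.

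The size of the Fxyd5 difference depended on the pigmented array. It was 5.03 without pigmented replicate 1 and 2.19 without pigmented replicate 2. Paired by date, it was 5.45 for the first and 1.78 for the second. Within the arrays of low and of high 3′ to 5′ ratio it was 2.61 and 4.62, and it was positive in each of these pairs. All members with at least 1 probe set over the filter are set out by pair in the plot of within-pair differences.

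**Figure D3:**
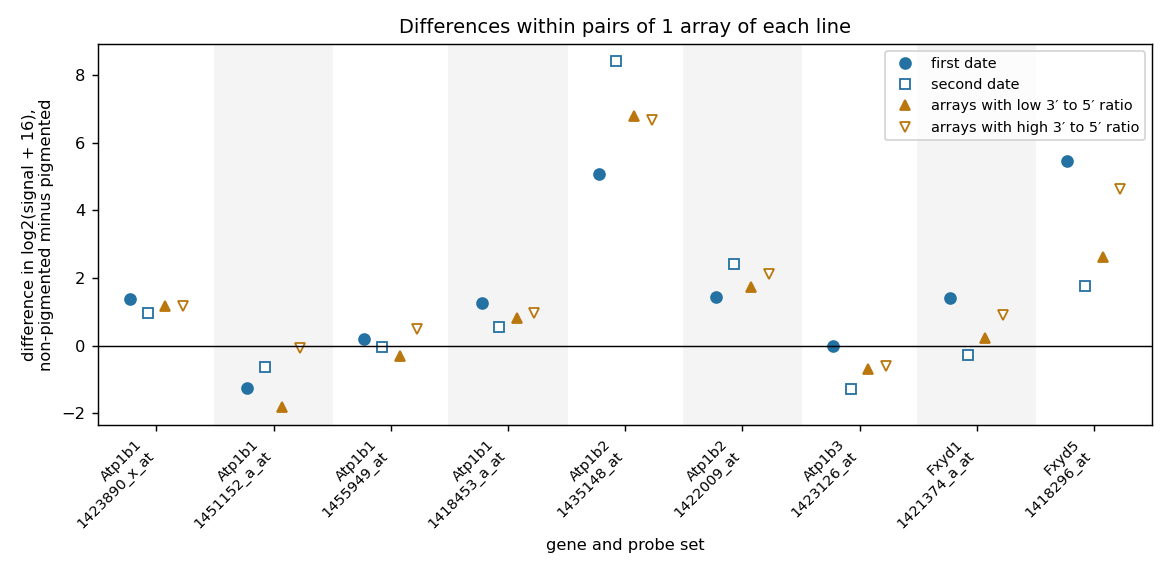
Difference in log2(signal + 16), non-pigmented minus pigmented, within pairs of 1 array of each line, for the 9 member probe sets over the filter. Blue symbols pair arrays of the same date and orange symbols pair arrays alike in the 3′ to 5′ ratio of controls. Atp1b2 and Fxyd5 are above 0 in every pair, and Fxyd1 and Atp1b1 probe set 1455949_at lie on either side of it.

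Fxyd1 encodes phospholemman, the FXYD protein through which protein kinases regulate the pump in heart and skeletal muscle. It was dim, with signals of 135 and 91.9 in the non-pigmented line, against 114 and 41.2 in the pigmented line. The lines overlapped, and the difference of 0.57 ± 0.56 (SE) was about as large as its error. Paired by date, it was 1.41 for the first and -0.27 for the second, and it was -0.02 without pigmented replicate 2. Within the arrays of low and of high 3′ to 5′ ratio it was 0.22 and 0.92. Fxyd6 encodes phosphohippolin, an FXYD protein best known from the brain. Its signals of 4.57 and 16.2 in the non-pigmented line, against 7.21 and 4.52 in the pigmented line, were at percentiles between 3.74 and 17.9 on the 4 arrays. The lines overlapped at a level where no difference could be read.

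Fxyd3, a further FXYD gene of the list of pump subunits, is not among the 6 genes and was tested. It encodes Mat-8, an FXYD protein first found in mouse mammary tumours. Its signals were 14648 and 16212 in the non-pigmented line, against 184 and 176 in the pigmented line. The arrays of a line were almost equal and the lines far apart. The difference was 6.30 ± 0.40 (SE), or 78.6-fold. By limma its adjusted p was 0.00511. The list was chosen with earlier results of these data known, so this p is no independent evidence. Under all 16 alternatives, which reuse the same arrays, the difference stayed between 5.985 and 6.54. The difference was 6.25 and 6.34 within the dates, and 6.19 and 6.40 within the arrays of low and of high 3′ to 5′ ratio.

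Of the 12 further subunit genes of the sodium pump and of the related proton-potassium pumps in that list, 9 were on the array with a single symbol, and the other 3 were not analysed here. Of these 9, 4 were tested: Fxyd3 was called higher in the non-pigmented line, 0 were called lower, and Fxyd4, Atp4a and Atp4b did not pass, at differences of -0.66, -0.23 and 0.50. The other 5 (Atp1a4, Atp1b4, Fxyd2, Fxyd7 and Atp12a) were below the filter. The highest of their signals on any array was 83.5, for Atp12a on pigmented replicate 1. The median difference over the 4 tested was 0.13, against -0.07 over all genes, of which 3.36% were called.

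Fxyd5, Fxyd7, Fxyd1, Lgi4 and Fxyd3 follow each other in this order on mouse chromosome 7 in the RefSeq annotation, with no other protein-coding gene between them. Lgi4 encodes a secreted protein of Schwann cells that is needed for myelination in mice. It was named for its place in this row after its values were seen. It had signals of 971 and 1202 in the non-pigmented line, against 52.5 and 79.9 in the pigmented line. The difference was 3.76 ± 0.43 (SE), with an adjusted p of 0.0105 by limma. As the gene was picked with its values known, this p is given as a description only. The mean log2 value of Lgi4 in the pigmented line, 6.34, lay under the filter value, so the size of its difference is uncertain. Fxyd7, which encodes an FXYD protein of the brain, was dim throughout, with 19.6 and 34.3 in the non-pigmented line and 10.1 and 7.80 in the pigmented line. Along the row the differences were thus 3.61, 0.77, 0.57, 3.76 and 6.30, and the 2 genes between Fxyd5 and Lgi4 were dim, with Fxyd7 below the filter on all arrays, where no size can be read. The 3 tested genes before Fxyd5, which are Mag, Hamp and Usf2, had differences of 0.20, 0.82 and -0.70. None was called by limma, nor had any an unadjusted p under 0.05. Gramd1a, the next tested gene past Fxyd3, had a difference of -0.17 and was not called.

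**Figure D4:**
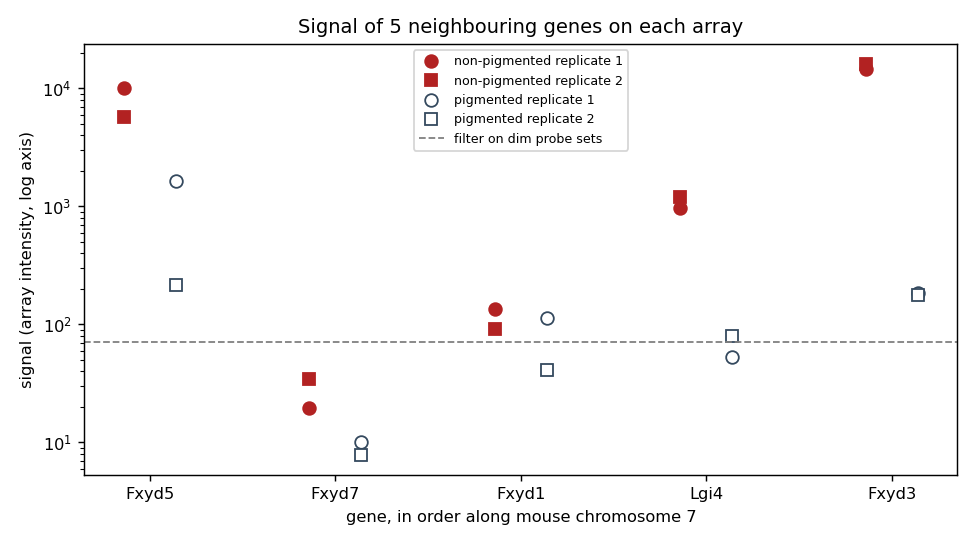
Signal of 5 neighbouring genes on each of the 4 arrays, in their order along mouse chromosome 7, on a log axis. Filled symbols are the non-pigmented and open symbols the pigmented arrays, and the dashed line is the filter at a signal of 70.7. Lgi4 and Fxyd3 are separated by line with little spread, Fxyd5 with a wide spread in the pigmented line, and Fxyd7 and Fxyd1 are dim.

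The bases before the start sites are shown for Fxyd5 and Fxyd3, which were high in the non-pigmented line. Beside them are Atp1b3, bright in both lines, and Atp1b1, for which no direction is given. RefSeq windows on GRCm38.p6 were found for 5 of the 6 members (all but Atp1b2). The 250 bases before the start are printed on the strand of the gene, and for Atp1b3 those of the upstream one of its listed starts. Capitals mark matches on either strand to the GC box GGGCGG and to the CCAAT box CCAAT, which did not overlap each other in these windows.
Fxyd5, chr7:31042332-31042581, minus strand: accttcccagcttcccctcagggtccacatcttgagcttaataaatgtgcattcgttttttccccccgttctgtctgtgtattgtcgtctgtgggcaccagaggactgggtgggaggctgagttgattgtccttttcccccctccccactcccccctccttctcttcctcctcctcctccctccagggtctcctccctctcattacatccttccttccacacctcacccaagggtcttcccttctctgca
Fxyd3, chr7:31076698-31076947, minus strand: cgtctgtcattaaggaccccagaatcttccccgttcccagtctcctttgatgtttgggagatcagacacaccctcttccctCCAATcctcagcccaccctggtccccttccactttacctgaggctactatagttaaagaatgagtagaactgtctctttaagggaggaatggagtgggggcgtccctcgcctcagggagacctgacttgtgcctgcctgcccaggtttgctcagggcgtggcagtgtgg
Atp1b3, chr9:96364432-96364681, minus strand: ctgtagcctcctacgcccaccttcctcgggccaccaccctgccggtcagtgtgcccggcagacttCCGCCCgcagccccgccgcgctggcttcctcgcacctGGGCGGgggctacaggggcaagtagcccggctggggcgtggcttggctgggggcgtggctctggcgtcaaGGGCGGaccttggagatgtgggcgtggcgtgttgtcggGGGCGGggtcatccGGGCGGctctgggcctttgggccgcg
Atp1b1, chr1:164458356-164458605, minus strand: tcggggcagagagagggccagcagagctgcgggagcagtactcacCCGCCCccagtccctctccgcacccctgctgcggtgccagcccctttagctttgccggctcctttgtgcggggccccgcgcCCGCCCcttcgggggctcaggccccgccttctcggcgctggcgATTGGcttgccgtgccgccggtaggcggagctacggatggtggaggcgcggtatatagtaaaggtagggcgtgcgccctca

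The window of Atp1b3 held 5 matches to GGGCGG and that of Atp1b1 held 2, while those of Fxyd5 and Fxyd3 held 0. The windows of the dim genes Fxyd1 and Fxyd6 and that of the second listed start of Atp1b3 also held 0. Of all 32851 promoter windows of this length, 32.7% held at least 1. CCAAT was found in 33.8% of all windows and here once each in Fxyd3, Atp1b1 and Fxyd6. GC content was 55.6% for Fxyd5 and 55.2% for Fxyd3, against 73.6% for Atp1b3 and 70.4% for Atp1b1, and the median of all windows was 52.4%. Fxyd1 and Fxyd6 had 57.2% and 50.4%. The Fxyd5 window was rich in pyrimidines on the strand of the gene, at 71.2% C or T, a share that 0.387% of all windows reached. Matches to CACGTG and CATGTG, which the pigment cell factor Mitf can bind, and to TGANTCA, the site of the phorbol ester responsive factor AP-1, were also searched on both strands. None of the 4 printed windows held any of these, the second start of Atp1b3 held 1 match to CACGTG, and 6.02%, 12.3% and 6.75% of all windows did.

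The genes whose pattern over the 4 arrays was most like that of a member were found by Euclidean distance, in log2 units, between log2 values centred on each gene's own mean. With 4 arrays such a distance mostly reflects the difference between the lines. Nearest to Atp1b2 were Lcn2 at 0.55, Pcolce at 0.74 and Chst11 at 1.04. Lcn2, which encodes an iron-binding lipocalin, had signals of 4388 and 15745 in the non-pigmented line, against 35.0 and 86.8 in the pigmented line. As for Atp1b2, replicate 2 was the brighter array of each line. Nearest to Fxyd5 were Mlkl at 0.38, Ccn2 at 0.49 and Trib2 at 0.60. Ccn2, which encodes a matricellular growth factor, had signals of 2769 and 1306 in the non-pigmented line, against 568 and 38.1 in the pigmented line, with replicate 1 the brighter array of each line. Nearest to probe set 1423890_x_at of Atp1b1 were Phc1, Gnpda2 and Prkacb, at distances from 0.07 to 0.08.

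Genes that use or share the ion gradients of the pump are set beside all genes tested. Of those, 3.36% were called and 13.8% had an unadjusted p under 0.05 by limma. The lists here and below were also chosen with earlier results of these data known. Of 21 tested transporters driven by the sodium gradient, 0 were called, and 4 had an unadjusted p under 0.05. Slc12a2, the sodium, potassium and chloride cotransporter, had signals of 5063 and 7206 in the non-pigmented line, against 1467 and 1939 in the pigmented line. All 3 of its probe sets were higher in the non-pigmented line. The difference of 1.83 ± 0.41 (SE) did not pass, with an adjusted p of 0.0833 by limma. That p was 0.0166 with the RNA integrity pair as a block and 0.261 with the date as a block. The amino acid transporter gene Slc38a1 had a difference of -1.26, Slc38a3 one of 1.12 and the bicarbonate transporter gene Slc4a8 one of -1.16, none of which passed. The values of Slc38a1 and Slc38a3 rest on 1 probe set each: as means over the probe sets of the gene they were -0.64 and 0.24, and Slc38a1 was at -0.02 in its probe set unique to the gene. The median difference of this list was -0.06.

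Of 14 tested genes of potassium channels, chloride-coupled potassium transporters and volume-regulated channels, 1 was called higher and 0 lower in the non-pigmented line. An unadjusted p under 0.05 by limma was found for 4 of them. Over all genes 3.36% were called and 13.8% had such an unadjusted p. Kcnk5, which encodes a background potassium channel, had signals of 1127 and 1252 in the non-pigmented line, against 38.5 and 4.61 in the pigmented line. Its difference was 5.17 ± 0.57 (SE), with an adjusted p of 0.00941 by limma, and both of its probe sets had this direction. Its pigmented signals were under the filter, and the difference was 6.32 with a constant of 1 and 3.90 with 64. Kcnj13, an inward rectifier that is known from the pigment epithelium of the eye and from fish pigment patterns, had signals of 116 and 88.3 in the non-pigmented line, against 613 and 13337 in the pigmented line. The pigmented arrays differed widely from each other. The difference of -4.63 ± 1.32 (SE) did not pass, with an adjusted p of 0.166 by limma. That p was 0.0223 with the date as a block and 0.0735 with the RNA integrity pair as a block. Lrrc8c, a subunit of volume-regulated anion channels, had a difference of 1.83 and Kcnn2 one of -1.21. The median of this list was 0.28.

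Of 8 tested calcium and copper pumps of the same P-type family, 0 were called by limma and 0 had an unadjusted p under 0.05. Atp2a2, the calcium pump of the endoplasmic reticulum, had a difference of -0.38, and the list had a median of -0.35. Of 21 tested genes of pump anchoring and regulation, 0 were called and 4 had an unadjusted p under 0.05 by limma. The shares over all genes were 3.36% and 13.8%. Sgk1, a kinase that raises sodium transport in kidney cells, had signals of 1001 and 1764 in the non-pigmented line, against 447 and 131 in the pigmented line, a difference of 2.36 that did not pass (adjusted p of 0.158 by limma). Of the genes of proteins that interact with the pump's beta1 subunit, Nkain2 had a difference of 2.95 and Nkain1 one of -1.06. Neither passed, Nkain2 with an adjusted p of 0.162 by limma. For Nkain2 that p was 0.0229 with the RNA integrity pair as a block and 0.113 with the date as a block. Wnk1, a kinase upstream of chloride cotransporters, had a difference of 0.89. The median of this list was 0.22.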

How the data were processed

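The deposited values were probe set intensities on a linear scale, made with Affymetrix Expression Console per the submitters' processing notes. Its version and summary algorithm are not given in the sources used here. The authors had scaled the arrays in bulk: every deposited column had a mean intensity of 500 once 2% of the probe sets were trimmed at each end. No background or detection values were used, and dim signal could therefore not be separated from background.

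From these intensities log2(signal + 16) was computed. Of 45101 probe sets, 64 were controls, 34945 had a single symbol in the platform annotation, 932 several and 9160 none; 34741 matched RefSeq by Entrez number, with 0 symbols changed. Each of 18193 genes was represented by its probe set with the highest mean log2 value, and genes under the 40th percentile (6.44) were left out, which left 12562. A second fit took all 27027 probe sets over the filter. Both used limma 3.58.1 in R 4.3.3 (lmFit, eBayes with trend, no covariates) with Benjamini-Hochberg adjustment over all features, and a call was an adjusted p under 0.05. The code was tested on simulated data. Figures used matplotlib 3.10.9.

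With 2 arrays against 2 the number of arrays limits the precision (an exact permutation test cannot give a two-sided p under 0.333). The labels name no separate cultures, so the limma p-values rest on a spread between arrays that may be technical. Each of 2 dates in the titles was shared by 1 array of either line; deviations of same-date arrays from their line means correlated at -0.51 across genes, and those of arrays alike in the 3′ to 5′ ratio (split at 3 for Gapdh) at 0.51, the same value with its sign turned. Both pairings were tried as a block. Named were the 6 members, Tyr, every called gene and up to 4 of smallest p in each list, and the 3 nearest patterns to each tested member with an absolute difference of at least 1; neighbours on the chromosome and marker genes were named after their values were seen. The members, lists and alternatives were chosen with earlier results of these data known.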

Additional observations from a re-analysis of the deposited data

How the results depend on the processing

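Among 422 genes called over all genes, 255 higher and 167 lower in the non-pigmented line, the counts were 886, 544 and 342 once the RNA integrity pair entered as a block. Without single arrays they lay between 234 (without non-pigmented replicate 2) and 773 (without pigmented replicate 1), with 127 to 506 higher and 100 to 267 lower. With the date as a replicate block 392 genes were called, and the count of 403 probe sets was 378; blocking on the integrity pair gave 1263, and dropping the filter gave 251. Median centring moved the median difference of all genes to 0.18, against -0.07, so differences under that scaling are read relative to it.

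Of the pump genes, 1 was past the threshold (Atp1b2). The family was selected on this contrast, so the following counts support nothing. With a pseudocount of 1 there were 0, because the probe set 1422009_at then represented Atp1b2 (difference 2.02). Blocking on the integrity pair gave 2, Atp1b2 and Fxyd5, as did leaving out pigmented replicate 1, and the range without single arrays was 1 to 2. The Atp1b2 difference was 4.34 as the mean of its probe sets and 5.87 to 7.60 without single arrays. For each member probe set held fixed, pseudocounts of 1 and 64, quantile normalization and median centring, added after seeing the data, changed no sign.

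Of the other pump and ion transport genes 2 were called (Fxyd3 and Kcnk5), 4 with the integrity pair as a block, 1 with a filter at the 60th percentile and 1 when all probe sets of a gene were averaged (Kcnk5 was then below the filter), and 2 to 4 without single arrays (4 when pigmented replicate 1 or pigmented replicate 2 was left out). Kcnj13 was called without pigmented replicate 1 (-6.83) or 2 (-2.42), Sgk1 without pigmented replicate 1 (3.19), and Nkain2 without pigmented replicate 2 (3.63) or non-pigmented replicate 1 (4.04) and when blocked on the integrity pair. Signals near or under the filter limit Atp1b1, Fxyd1 and Fxyd6 and the pigmented level of Atp1b2.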

Other observations

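Neighbours on the chromosome were also looked at for the other members, a choice made after the values were seen. Of the 6 nearest tested genes around Atp1b2 (3 on either side), 0 were called by limma and 1 had an unadjusted p under 0.05. Over all genes the shares were 3.36% and 13.8%. The 1 gene was Kdm6b, a histone demethylase gene, with a difference of -1.37. The highest of the 6 differences was 0.54, that of Sat2. Around Atp1b1, Atp1b3 and Fxyd6, 0 of 6 neighbours each were called and 0 had an unadjusted p under 0.05, with differences between -0.77 (Scn2b, near Fxyd6) and 0.57 (Rasa2, near Atp1b3). Scn2b encodes a beta subunit of sodium channels.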
